A study of Mus musculus with 20 samples.

Results

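The mitochondrial genome of the mouse encodes 37 genes, and all of them were measured here: 13 mRNAs, 2 rRNAs and 22 tRNAs. They were taken as the rows whose gene symbol begins with mt-, out of 54532 genes in the deposited table. The 20 libraries came from C57BL/6 mice. Hepatocyte organoids (Hep-Org, hepatocytes embedded in Matrigel and passaged) gave 2 libraries. Regenerating liver, from mice that had 70% of the organ removed (partial hepatectomy, PHx), was sampled at 6, 12, 24, 48 and 72 h and at 7, 14 and 21 d, and each time point has 2 libraries. Undamaged liver gave 2 libraries. The liver samples were freshly isolated hepatocytes per the growth protocol, although replicate 2 of each PHx time carries the tissue label liver and no cell type. The labels do not say that replicates were separate animals or cultures, so p-values measure the spread between these libraries, which may be technical.

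Mitochondrial DNA is transcribed from both strands as long precursors, and the tRNAs that punctuate them are cut out to release the mRNAs and rRNAs. The mRNAs encode subunits of the respiratory chain and of ATP synthase, and the nuclear genome supplies the other subunits. Hepatocytes are rich in mitochondria, and these transcripts are abundant in whole-liver RNA. All mRNAs but mt-Nd6 are read from 1 template strand and are called heavy-strand transcripts here. mt-Nd6 and 8 of the tRNAs lie on the opposite (light) strand.

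Several mitochondrial mRNAs cannot be separated by sequence from annotated copies in the nuclear genome, so sequences are shown first. Positions are those of GENCODE M21 on GRCm38 (mm10), and the sequences are its transcripts, written as DNA. Of the 13 mRNAs, 7 matched a nuclear transcript at 99% identity or more over at least 100 bases. All 7 copies lie together on chromosome 1, chr1:24611535-24616197, minus strand. mt-Co2 (chrM:7013-7696) and its copy Gm28661 were identical over 681 of 684 bases, of which the first 60 are shown. mt-Co1 (chrM:5328-6872) matched Gm29216 over its last 483 bases with 1 mismatch. The lines for mt-Co1 give 60 bases from its base 1063, with capitals at the positions where a copy differs: A1066T in Gm29216 and T1072C in Gm13340, a less similar copy on chromosome 2, counted from base 1 of mt-Co1.
mt-Co2: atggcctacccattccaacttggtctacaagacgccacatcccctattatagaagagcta
Gm28661: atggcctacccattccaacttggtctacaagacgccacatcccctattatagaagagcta
mt-Co1: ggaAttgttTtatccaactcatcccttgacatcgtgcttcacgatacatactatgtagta
Gm29216: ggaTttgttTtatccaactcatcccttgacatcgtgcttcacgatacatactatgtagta
Gm13340: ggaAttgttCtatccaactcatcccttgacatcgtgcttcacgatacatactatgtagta

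The other copies were Gm10925 of mt-Atp6, Gm28437 of mt-Co3, Gm28438 of mt-Nd3, Gm10222 of mt-Nd4l and Gm28439 of mt-Nd4. The copies of mt-Atp6, mt-Co3 and mt-Nd4l matched over nearly the whole gene without a mismatch, and Gm28439 matched 876 of the 1378 bases of mt-Nd4. No copy of that similarity was annotated for mt-Nd1, mt-Nd2, mt-Nd5, mt-Nd6, mt-Cytb or mt-Atp8. The search covered annotated transcripts and not the genome between them. mt-Atp8 lies between mt-Co2 and mt-Atp6, and the stretch between their copies was not searched. It runs from the end of Gm10925 at chr1:24614651 to the start of Gm28661 at chr1:24614885. A copy of mt-Atp8 there would have been missed. mt-Atp8 also shares 43 bases with mt-Atp6, shown in capitals at chrM:7912-7984. Its level and that of mt-Atp6 therefore depend on how the authors' counting assigned shared reads, which is not given in the sources used here.
mt-Atp8 and mt-Atp6: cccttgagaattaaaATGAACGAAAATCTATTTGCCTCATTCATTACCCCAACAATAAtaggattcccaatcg

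Values were FPKM (fragments per kilobase of exon, scaled to sequencing depth), so levels of different genes are compared per length. Depth recovered from the table was 13.7 to 41.4 M reads per library (M, mega). FPKM summed to 167676 to 988797 per library, lowest in Hep-Org. The libraries had been rescaled by an unstated method, by factors of 0.478 to 1.94 relative to the recovered depth. A share or a ratio within a library is not touched by that scaling. Libraries of 48 h, 72 h and 7 d and Hep-Org replicate 2 held Xist at 13.6 to 25.3 FPKM and at most 0.00756 FPKM of the Y-linked Ddx3y, and the others held Ddx3y, so sex was mixed across times. Summed levels of 15 hepatocyte markers were 1173 and 4992 FPKM in Hep-Org, against 30823 to 96856 FPKM in liver, and Alb (albumin) had 3132 and 86.4 FPKM in the Hep-Org libraries. Summed levels of 6 biliary markers were 2737 and 4449 FPKM in Hep-Org, against 5.41 to 335 FPKM in liver. The label of hepatocyte organoids is therefore used as a name of the culture. Fewer cells of a type and less RNA per cell cannot be told apart in such samples.

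The 13 mRNAs together took 6.59% to 51.8% of the summed FPKM of a library. Hep-Org held 6.59% and 7.07%, the 2 lowest shares of all libraries. Undamaged liver held 15.8% and 18.9%. With replicate 1 named before replicate 2, the 6 h libraries held 34.3% and 51.8%, those of 12 h 21.2% and 33.3%, and those of 24 h 37.1% and 11.5%. The 48 h libraries held 36.0% and 23.7%, and those of 72 h 26.2% and 23.9%. The 7 d libraries held 22.1% and 14.1%, those of 14 d 7.58% and 9.77%, and those of 21 d 7.82% and 15.02%. The highest share was in 6 h replicate 2, and the libraries of 14 d lay below all those of 6 to 72 h.

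**Figure D1:**
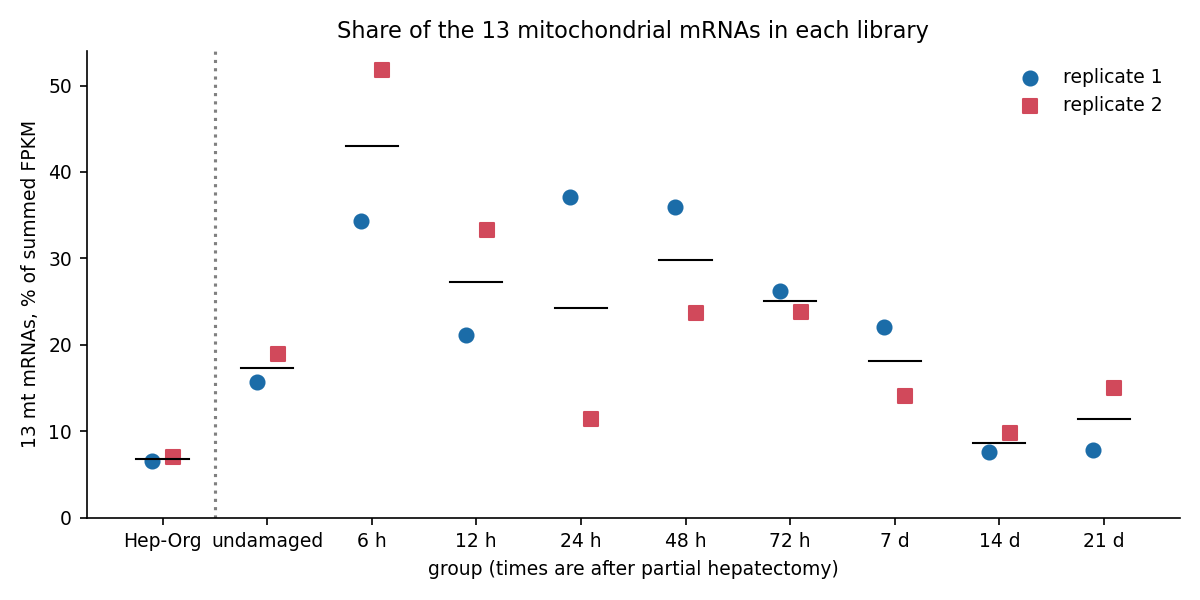
Each point is the share of 1 library's summed FPKM taken by the 13 mitochondrial mRNAs (in percent), by group, with a bar at the mean of the 2 replicates. Hep-Org lies at 6.59% and 7.07%, the 6 h libraries at 34.3% and 51.8%, and the replicates of 24 h stand apart at 37.1% and 11.5%.

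Replicates of a time differed by 1.10-fold at 72 h to 3.24-fold at 24 h in this share, with a median of 1.54-fold over the 8 times. The libraries came in 2 submissions, the second holding replicate 2 of every PHx time and the first all others. The second submission was higher at 4 of the 8 times, namely 6 h, 12 h, 14 d and 21 d. The mean share was 8.68% ± 1.55 at 14 d and 43.0% ± 12.3 at 6 h (SD, n = 2 each), and their libraries did not overlap. The libraries of 12 h (27.3% ± 8.57), 24 h (24.3% ± 18.2), 48 h (29.9% ± 8.68) and 72 h (25.04% ± 1.68) overlapped one another. Over 7 to 21 d the share was 12.7% ± 5.56, against 31.5% ± 13.9 over 6 to 24 h (SD, n = 6 each). The later times were lower in both submissions, by 1.09 on the log2 scale in the second and 1.45 in the first (log2 differences of -1.09 and -1.45). By recovered reads instead of FPKM the share was 2.97% and 3.11% in Hep-Org, 3.998% to 12.6% over 7 to 21 d, 6.37% to 40.1% over 6 to 24 h, and 8.62% and 12.3% in undamaged liver. No p-value is given for this share, since it sums the genes chosen.

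The levels fell into an abundant and a scarce set. In all 20 libraries each of mt-Co1, mt-Cytb, mt-Nd1, mt-Nd2, mt-Nd4, mt-Nd5 and mt-Nd6 exceeded each of the other 6 mRNAs. These 7 made up 94.4% to 99.3% of the mRNA FPKM. mt-Co1 ranked first in every library and mt-Cytb second in 18, while mt-Nd1 was second in both Hep-Org libraries. mt-Atp8 was last in every library. The 6 scarce mRNAs comprise the 5 whose whole length is nearly identical to a nuclear copy, and mt-Atp8, which lies between mt-Co2 and mt-Atp6.

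**Figure D2:**
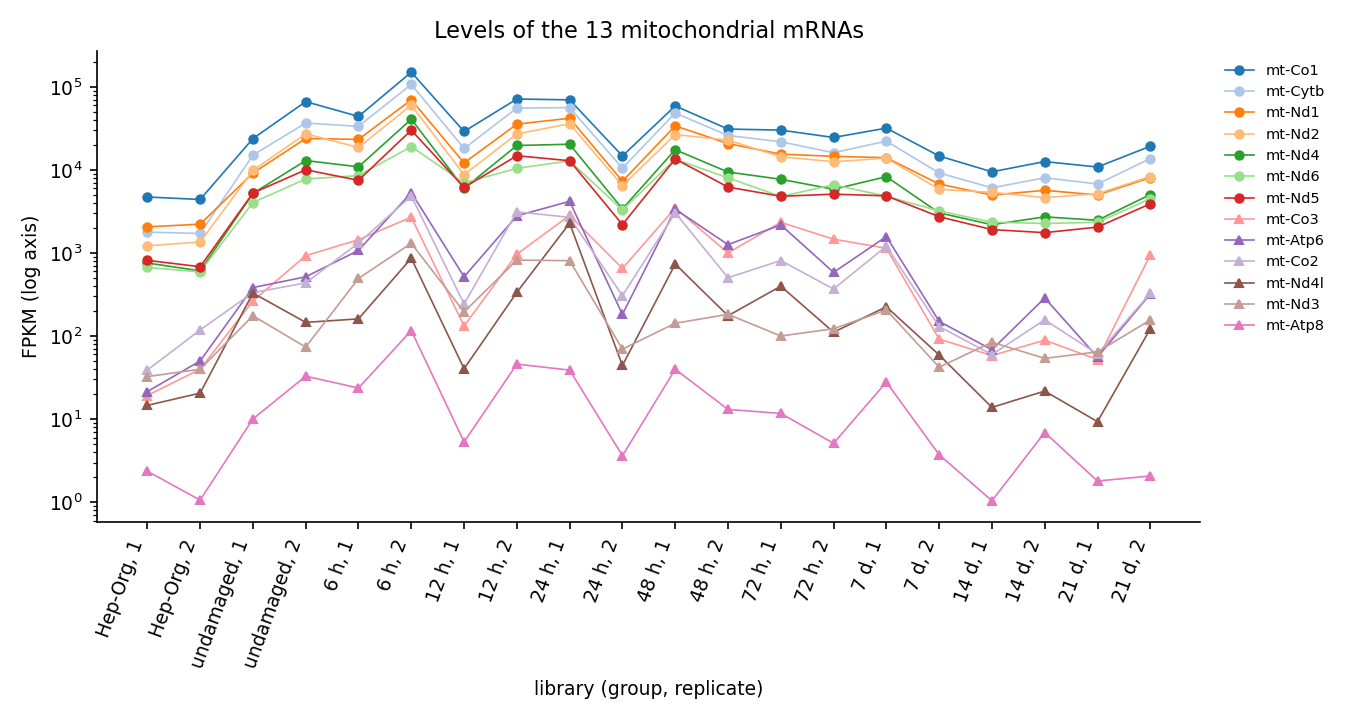
Lines join the FPKM of each of the 13 mRNAs (log axis) across the 20 libraries, in order of group with replicate 1 before replicate 2. The 7 abundant mRNAs (circles) stay above the 6 scarce ones (triangles) in every library, and they peak together in 6 h replicate 2.

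mt-Co1 encodes the catalytic core subunit of complex IV, cytochrome c oxidase. It had 4724 and 4409 FPKM in Hep-Org, against 23845 and 66449 FPKM in undamaged liver. After PHx the 6 h libraries had 44043 and 150278 FPKM, those of 12 h 29022 and 71442, those of 24 h 69779 and 14732, and those of 48 h 58965 and 31055. The 72 h libraries had 30147 and 24594 FPKM, those of 7 d 31881 and 14713, those of 14 d 9494 and 12613, and those of 21 d 10838 and 19301. Both Hep-Org libraries lay below every liver library, and 6 h replicate 2 was the highest of all.

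mt-Nd6 encodes a membrane subunit of complex I (NADH dehydrogenase) and is the only light-strand mRNA. It had 670 and 592 FPKM in Hep-Org, against 4052 and 7783 FPKM in undamaged liver. Over 7 to 21 d its lowest, median and highest levels were 2267, 2779 and 4821 FPKM, against 3296, 9495 and 19094 FPKM over 6 to 24 h. Hep-Org stood below all liver libraries, and the later and earlier PHx times overlapped. mt-Cytb, the mitochondrial subunit of complex III, had 1787 and 1717 FPKM in Hep-Org, against 15086 and 36705 FPKM in undamaged liver. Its lowest, median and highest levels were 6092, 8622 and 22224 FPKM over 7 to 21 d, against 10509, 44514 and 107060 FPKM over 6 to 24 h.

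Hep-Org was set against undamaged liver with limma on log2(FPKM + 1). A call required an adjusted p below 0.05 together with a log2 difference of 1 or more in size. Of the 13 mRNAs, 7 fell, the abundant set of mt-Nd1, mt-Nd2, mt-Nd4, mt-Nd5, mt-Nd6, mt-Cytb and mt-Co1. Of all 13162 genes tested, 23.5% were called. The median log2 difference was -3.28 over the mRNAs and -0.03 over all genes. mt-Cytb was lower by a log2 difference of -3.75 ± 0.96 (SE, limma adjusted p = 0.0112), and mt-Nd6 by -3.15 ± 0.72 (adjusted p = 0.00592). The other 6 mRNAs were also lower, at log2 differences of -1.63 for mt-Nd3 to -4.11 for mt-Co3, with adjusted p of 0.0549 to 0.281. Every Hep-Org library was below both undamaged libraries for all 13 mRNAs, where 35.5% of all genes showed the same. Without undamaged replicate 2 the call was left to 1 mRNA, without Hep-Org replicate 1 to 1 and without Hep-Org replicate 2 to 2. When libraries were set to the same sum over all genes, the median of all genes moved by 1.37 on the log2 scale. Of the 13 mRNAs 4 were called, beside 8296 of the 13162 genes, and mt-Nd3 turned to a log2 difference of 0.28. Of all genes called, 43.7% were higher in Hep-Org as deposited and 91.2% with those equal sums.

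Against the liver of 7 to 21 d, 4 mRNAs fell in Hep-Org: mt-Nd2, mt-Nd4, mt-Nd6 and mt-Cytb. Of all genes, 24.9% were called. mt-Nd2, a membrane subunit of complex I, had 1221 and 1355 FPKM in Hep-Org, against 4639, 5607 and 13839 FPKM (lowest, median and highest) over 7 to 21 d, a log2 difference of -2.39 ± 0.80 (SE, limma adjusted p = 0.0324). mt-Nd6 differed by -2.30 ± 0.62 (adjusted p = 0.0114) and mt-Cytb by -2.51 ± 0.82 (adjusted p = 0.0297). Both Hep-Org libraries lay below all 6 liver libraries for 10 mRNAs, where 29.0% of all genes did. The exceptions were mt-Co2, mt-Atp8 and mt-Nd4l. Leaving out either Hep-Org library left 0 calls, leaving out 7 d replicate 1 or 14 d replicate 1 left 1, and leaving out 21 d replicate 2 left 2. Against 14 and 21 d alone the calls of mt-Nd2, mt-Nd4 and mt-Cytb were lost, at log2 differences of -2.17, -2.13 and -2.25. With libraries set to the same sum over nuclear genes, all 13 were lower and 0 were called, and of all genes called 82.7% were higher in Hep-Org, in place of 45.1% as deposited.

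**Figure D3:**
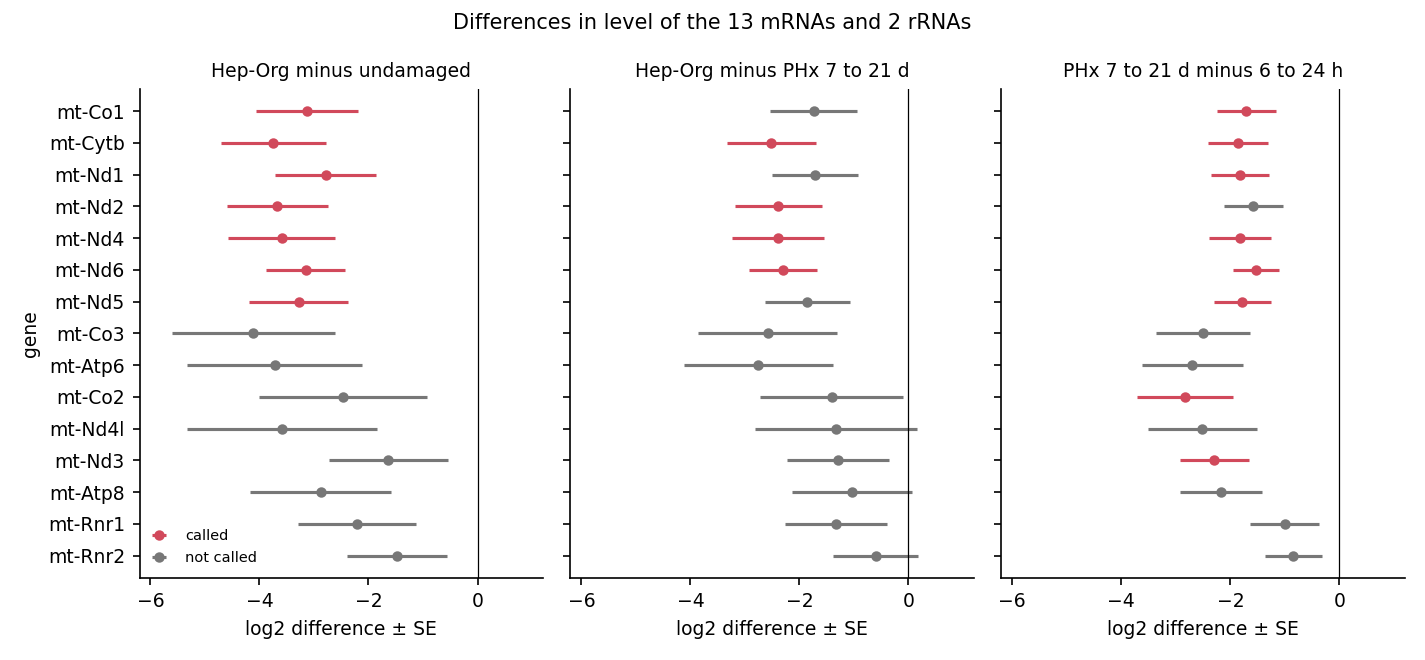
Points are log2 differences of FPKM + 1 for the 13 mRNAs and 2 rRNAs with bars of 1 SE, for Hep-Org minus undamaged liver, Hep-Org minus PHx 7 to 21 d, and PHx 7 to 21 d minus 6 to 24 h. Every point lies below 0, and 7, 4 and 8 mRNAs were called in the panels from left to right.

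The PHx times were each compared with undamaged liver. None of the 13 mRNAs was called by limma at any time, while of all genes 10.9% were called for 6 h, 3.08% for 12 h, 0.410% for 48 h, 0.889% for 72 h and 0.425% for 7 d, and 0% for 24 h, 14 d and 21 d. At an unadjusted p under 0.05, 1 mRNA differed at 6 h (mt-Nd3, log2 difference 2.88 ± 1.13 (SE), adjusted p = 0.110) and 0 at the other times. limma's voom on the recovered reads called 0 as well. For the 6 h, 12 h and 24 h libraries the median log2 difference of the 13 mRNAs was 1.38, 0.43 and 0.22, in that order. For 48 h it was 0.67 and for 72 h 0.02. For 7 d it was -0.66, for 14 d -1.73 and for 21 d -1.30. The undamaged libraries themselves differed widely, with mt-Co1 at 23845 and 66449 FPKM and the acute-phase gene Saa1 at 19.9 and 20927 FPKM. Between them the summed Kupffer cell markers had 41.04 and 1057 FPKM, neutrophil markers 0.655 and 122 FPKM and biliary markers 8.06 and 335 FPKM, lower value first, and their part in the result was not tested. In the test over the 8 PHx times 0 of the 13 mRNAs were called, with adjusted p of 0.193 to 0.417, where 9.51% of all genes were called. No mRNA had an unadjusted p under 0.05 in that test, and voom called 0.

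Set together, the later times (7 to 21 d) were compared with the earlier ones (6 to 24 h). Of the 13 mRNAs 8 fell: mt-Nd1, mt-Nd3, mt-Nd4, mt-Nd5 and mt-Nd6 of complex I, mt-Cytb of complex III, and mt-Co1 and mt-Co2 of complex IV. Of all genes 7.13% were called. mt-Nd6 differed by a log2 difference of -1.53 ± 0.42 (SE, limma adjusted p = 0.0222), mt-Nd1 by -1.83 ± 0.53 (adjusted p = 0.0294) and mt-Co2 by -2.83 ± 0.89 (adjusted p = 0.0398). mt-Nd2, mt-Co3, mt-Atp6, mt-Atp8 and mt-Nd4l were lower at log2 differences of -1.58 to -2.69, with adjusted p of 0.0552 to 0.0960. All 13 were lower within each submission, and no count over all genes is given for that. The later and the earlier libraries overlapped for each of the mRNAs. Of the 13162 genes tested, 263 were lower at the later times without overlap.

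These calls lay near the threshold. They fell to 0 when any 1 of 5 libraries was left out (6 h replicate 2, 12 h replicate 2, 24 h replicate 1, 7 d replicate 2 or 21 d replicate 1), to 1 or 2 without 14 d replicate 1 or replicate 2, and to 5 without either 72 h library. They also fell to 0 without the filter on low values, where more genes enter the adjustment. With equal sums over all genes 8 were called, beside 1365 of the 13162 genes tested. The share of higher calls among all genes was then 86.3%, in place of 54.1% as deposited. Equal sums over nuclear genes called 9, beside 921 of all genes, and voom called 10, beside 1701. For mt-Nd1 the log2 difference was -1.52 without 6 h replicate 2 and -1.35 without 24 h replicate 1. Without 7 d, whose libraries held Xist, 10 mRNAs were called, and the share of all genes called was not taken. Erythroid markers summed to 12.4 to 168.2 FPKM over 7 to 21 d, against 82.6 to 7089 FPKM over 6 to 24 h, with none of the 6 at 0 throughout either group. Hbb-bs (a beta-globin) had 3059 and 140 FPKM in the 6 h libraries and 2955 and 36.4 FPKM in those of 12 h. In the 24 h libraries it had 115 and 21.3 FPKM. Neutrophil markers summed to 3.06 to 192 FPKM over 7 to 21 d, against 21.8 to 843 FPKM over 6 to 24 h, with none of the 7 at 0 throughout, and hepatocyte markers to 33320 to 88458 FPKM over 7 to 21 d, against 30823 to 74322 FPKM over 6 to 24 h. Kupffer cell markers summed to 234 to 1069 FPKM over 7 to 21 d, against 132 to 347 FPKM over 6 to 24 h, and stellate markers to 32.6 to 69.4 FPKM, against 24.1 to 39.7 FPKM. Sinusoidal endothelial markers summed to 46.1 to 123 FPKM over 7 to 21 d, against 39.5 to 168.2 FPKM over 6 to 24 h, lymphocyte markers to 0.641 to 11.8 FPKM, against 1.08 to 18.6 FPKM, and biliary markers to 5.41 to 28.98 FPKM, against 11.1 to 70.4 FPKM. No marker list had a member at 0 throughout either group. Their part in the result was not tested.

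The ratios among the mRNAs were taken against the geometric mean of mt-Nd1, mt-Nd2, mt-Nd5, mt-Nd6 and mt-Cytb. These are the 5 abundant mRNAs with no near-identical nuclear copy annotated. That mean ranged 41.6-fold between libraries, between 1159 and 48164 FPKM. The ratios of the 7 abundant mRNAs nevertheless had SDs of 0.17 to 0.24 on the log2 scale over the 20 libraries, and those of the 6 scarce mRNAs 0.85 to 1.33. The median ratio was 2.94 for mt-Co1, 1.99 for mt-Cytb, 1.43 for mt-Nd1, 1.25 for mt-Nd2, 0.682 for mt-Nd4, 0.559 for mt-Nd6 and 0.539 for mt-Nd5. Hep-Org lay outside the liver range for 3 of them. mt-Cytb had log2 ratios of 0.58 and 0.57 in Hep-Org, against 0.69 to 1.199 in liver. mt-Nd1 had 0.79 and 0.94 in Hep-Org, against 0.22 to 0.64 in liver, and mt-Co1 had 1.98 and 1.93, against 1.11 to 1.89. These ratios share their reference genes and library, and are given as a description.

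mt-Nd6 against the geometric mean of the 4 heavy-strand mRNAs mt-Nd1, mt-Nd2, mt-Nd5 and mt-Cytb gives a ratio of light-strand to heavy-strand mRNA. It was 0.484 and 0.432 in Hep-Org, against 0.440 and 0.352 in undamaged liver. The 6 h libraries had 0.470 and 0.315, those of 12 h 0.669 and 0.350, and those of 24 h 0.397 and 0.573. The 48 h libraries had 0.484 and 0.482, those of 72 h 0.387 and 0.598, those of 7 d 0.400 and 0.572, those of 14 d 0.559 and 0.516, and those of 21 d 0.538 and 0.579. The values of every group lay inside the range over 6 to 24 h, 0.315 to 0.669. Strandedness is not given, and mt-Nd5 and mt-Nd6 overlap on opposite strands, so the reads of that overlap cannot be assigned.

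**Figure D4:**
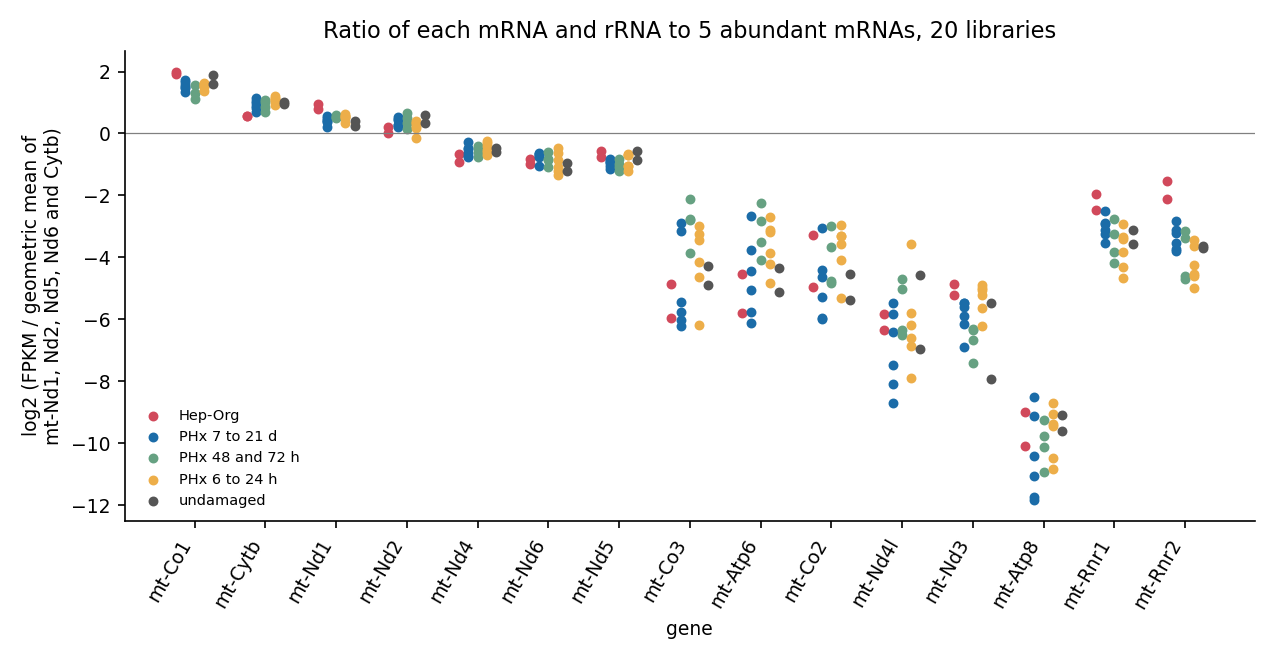
Points are log2 ratios of each mRNA and rRNA to the geometric mean of mt-Nd1, mt-Nd2, mt-Nd5, mt-Nd6 and mt-Cytb in each of the 20 libraries, coloured by group. The abundant mRNAs cluster tightly (SD 0.17 to 0.24), the scarce ones spread (SD 0.85 to 1.33), and the rRNAs are highest in Hep-Org.

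The scarce mRNAs had median levels of 5.60% (mt-Atp6), 5.38% (mt-Co3), 4.48% (mt-Co2), 2.04% (mt-Nd3), 1.22% (mt-Nd4l) and 0.121% (mt-Atp8) of that mean. mt-Co2 and mt-Co3 encode the other mitochondrial subunits of complex IV, and mt-Atp6 and mt-Atp8 subunits of ATP synthase. mt-Co2 had 38.9 and 118 FPKM in Hep-Org, against 334 and 437 FPKM in undamaged liver. Over 7 to 21 d it had 59.8, 144 and 1207 FPKM (lowest, median and highest), against 243, 2004 and 4860 FPKM over 6 to 24 h. mt-Atp8 rested on 5 to 636 recovered reads per library, where mt-Co1 had at least 304673. Its level was 2.36 and 1.06 FPKM in Hep-Org, against 10.04 and 32.9 FPKM in undamaged liver, and it reached 116 FPKM in 6 h replicate 2.

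The nuclear copies had levels near those of the scarce mRNAs. Gm28661 ran between 21.9 and 3954 FPKM and made up 18.5% to 59.5% of the sum of mt-Co2 and itself, with a median of 37.2% over the 20 libraries. Gm10925 made up 25.02% to 53.2% of its sum with mt-Atp6, Gm28437 10.2% to 44.6% with mt-Co3, Gm10222 17.0% to 62.8% with mt-Nd4l and Gm28438 8.24% to 89.0% with mt-Nd3. The copies of the long mRNAs took less: Gm29216 0.380% to 2.34% with mt-Co1 and Gm28439 0.552% to 2.66% with mt-Nd4. The summed level of the 7 copies was highest in 6 h replicate 2, at 11686 FPKM, and lowest in Hep-Org. Reads of a gene and an identical copy cannot be told apart, so the levels of mt-Co2, mt-Co3, mt-Atp6, mt-Nd3 and mt-Nd4l are uncertain. The medians of these sums were 7.71% (mt-Co2), 7.55% (mt-Co3), 9.79% (mt-Atp6), 2.94% (mt-Nd3) and 1.96% (mt-Nd4l) of the reference mean. The SD of the log2 ratio of these sums was 0.53 for mt-Nd3 and 0.95 to 1.11 for the other 4.

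A test of the ratios, with every gene divided by the geometric mean of the 13 mRNAs in its library, called 0 of the 13 in limma for Hep-Org against 7 to 21 d, for the later against the earlier times, for the second against the first submission and over the 8 times. None had an unadjusted p under 0.05 in any of them. Of all genes 54.3%, 69.4%, 0.380% and 18.8% were called in these comparisons. The SE of an mRNA's ratio in this fit was 0.66 to 0.76 between later and earlier times, and the log2 differences ran from -0.72 to 0.59, so smaller shifts in the ratios were not detectable. For Hep-Org against 7 to 21 d the SE was 0.98 to 1.12. The spread in this fit was pooled over genes, with infinite prior degrees of freedom (median over genes). Nearly all of these are nuclear genes, whose ratio to the mRNAs varies with the mitochondrial share. The test therefore could not decide whether the ratios were stable. With the 5 reference mRNAs as divisor, a setting chosen after seeing the data, mt-Co3 was called over the 8 times (adjusted p = 0.0200). The share of all genes called with that divisor was not taken, and the level of mt-Co3 is uncertain, as given above.

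The rRNAs of the mitochondrial ribosome were far below the abundant mRNAs. mt-Rnr1 (12S) had 308 and 208 FPKM in Hep-Org, against 661 and 2096 FPKM in undamaged liver. mt-Rnr2 (16S) had 417 and 268 FPKM in Hep-Org, against 629 and 1373 FPKM in undamaged liver. Over PHx they reached 4761 and 2530 FPKM in 6 h replicate 2. Neither was called between Hep-Org and undamaged liver, with log2 differences of -2.21 ± 1.09 for mt-Rnr1 and -1.47 ± 0.92 for mt-Rnr2 (SE, limma adjusted p = 0.144 and 0.246).

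Relative to the mRNAs of the same library, the rRNAs were highest in Hep-Org. The sum of the 13 mRNAs was 16.8 and 24.9 times that of the rRNAs in Hep-Org, against 57.4 and 54.0 times in undamaged liver and 31.2 to 136 times over PHx. mt-Rnr1 was 0.739 and 0.775 times mt-Rnr2 in Hep-Org, against 1.05 and 1.53 times in undamaged liver and 1.09 to 1.88 times over PHx. For both measures the Hep-Org libraries lay below all 18 liver libraries. Both measures were picked with their values seen and were not tested. The protocol names no depletion of rRNA and no selection of poly(A) RNA. Of 16 noncoding RNAs without a poly(A) tail, 7 were at 0 in both Hep-Org libraries and 10 in both undamaged libraries, and their sum was 10.04 FPKM at the highest.

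The tRNAs were uneven, and 20 of the 22 passed the filter on low values. mt-Tf and mt-Td were listed at 0 in every library. mt-Tp, the proline tRNA and the last gene before the control region, was the highest in all libraries, at 662 to 13950 FPKM. Its lowest, median and highest levels over 7 to 21 d were 1085, 1286 and 3645 FPKM, against 2451, 4463 and 13950 FPKM over 6 to 24 h. mt-Tc (cysteine), mt-Te (glutamate) and mt-Tn (asparagine) came next, with medians of 593, 545 and 270 FPKM, and all of these lie on the light strand. The other light-strand tRNAs had medians of 101 (mt-Ty), 6.08 (mt-Ta), 1.73 (mt-Tq) and 0 FPKM (mt-Ts1). Strandedness is not given, so reads at these genes cannot be assigned to a strand. The tRNA genes are 59 to 75 bases long, and the 3 highest are shown, written as DNA.
mt-Tp: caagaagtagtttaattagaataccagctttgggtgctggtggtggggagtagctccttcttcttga
mt-Te: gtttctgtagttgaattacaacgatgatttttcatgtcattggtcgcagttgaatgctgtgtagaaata
mt-Tc: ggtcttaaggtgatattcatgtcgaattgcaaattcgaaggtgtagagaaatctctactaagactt

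In 6 h replicate 2 and 12 h replicate 2 nearly all tRNAs were at 0. mt-Tp had 13950 and 5240 FPKM there, mt-Te had 0 and 1.85 FPKM, and the other 20 were at 0. In the other 18 libraries 14 to 20 tRNAs were above 0, and mt-Tc had 210 to 2561 FPKM. These 2 libraries were the deepest (41.0 and 41.4 M reads), and 6 h replicate 2 had the highest mRNA share. Of 2371 annotated genes under 100 bases elsewhere in the genome, 50 and 67 were above 0 in them, 26 to 32 in the other 6 second-submission libraries, and 70 to 250 in the first-submission libraries. The cause of the zeros was not tested.

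**Figure D5:**
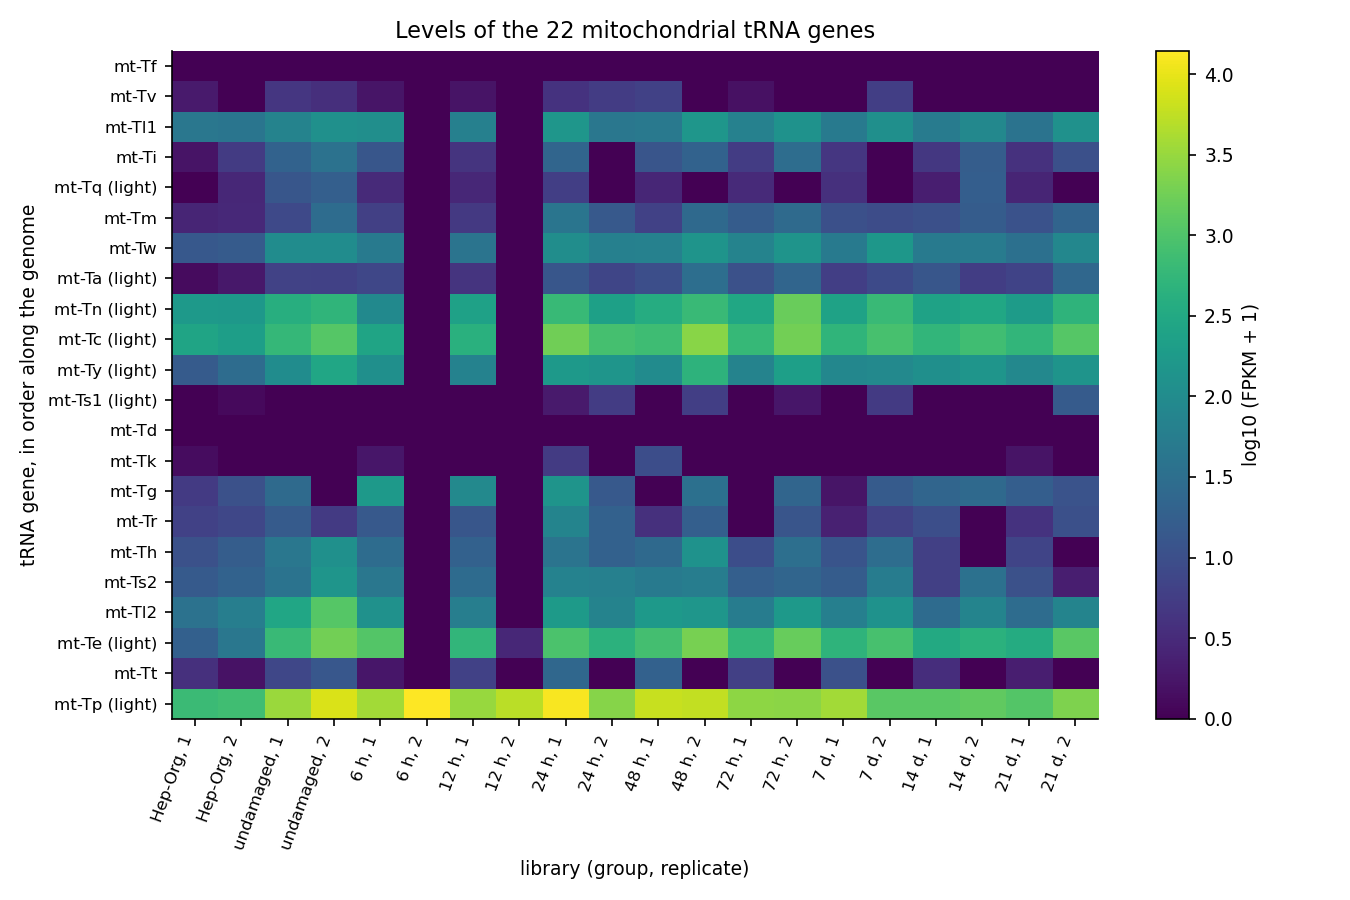
Colour gives log10(FPKM + 1) of each of the 22 tRNA genes, in their order along the mitochondrial genome, in the 20 libraries; light-strand genes are marked. mt-Tp is high throughout (662 to 13950 FPKM), and the columns of 6 h replicate 2 and 12 h replicate 2 are at 0 but for mt-Tp and 1.85 FPKM of mt-Te.

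In the fits of level, limma called mt-Tp and mt-Tq lower in Hep-Org than in undamaged liver, mt-Ta lower in Hep-Org than over 7 to 21 d, and mt-Tp lower over 7 to 21 d than over 6 to 24 h. mt-Tp differed by log2 differences of -2.86 ± 0.88 in Hep-Org against undamaged liver (SE, adjusted p = 0.0272) and -1.76 ± 0.51 at the later against the earlier times (adjusted p = 0.0281). mt-Tq had 0 and 1.94 FPKM and mt-Ta 0.332 and 0.854 FPKM in Hep-Org. The calls of mt-Tq, mt-Ta and of mt-Tp in Hep-Org were lost with voom on recovered reads and without the filter on low values. They were also lost with equal sums over all genes and over nuclear genes. The call of mt-Tq was lost as well with 0.1 in place of 1 added to FPKM. mt-Tq rested on 0 and 7 recovered reads in Hep-Org, against 17 and 13 in undamaged liver. The mt-Tp call at the later times was lost without the filter on low values and when any 1 of 7 libraries was left out (6 h replicate 2, 12 h replicate 2, 24 h replicate 1, 7 d replicate 2, either 14 d library or 21 d replicate 1). The mt-Tp call in Hep-Org was also lost without undamaged replicate 2 and without either Hep-Org library. Between the submissions 0 of the 13 mRNAs and 0.0532% of all genes were called, with 0 mRNAs at an unadjusted p under 0.05 and 0 by voom. The called tRNA was mt-Tt (threonine), which was at 0 in all 8 second-submission libraries and at 0.766 to 23.5 FPKM in the 8 first-submission PHx libraries, a log2 difference of -2.67 ± 0.40 (SE, adjusted p = 0.0454). A submission cannot be told apart from other differences between these sets of libraries.

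Nuclear genes that act with the mitochondrial transcripts were described from lists of names. The nuclear subunits of complexes I, III and IV and ATP synthase gave 69 tested genes. Over 7 to 21 d against 6 to 24 h, 1 rose and 0 fell, where 7.13% of all genes were called, with a median log2 difference of -0.07, beside -0.02 over all genes and -1.86 over the 13 mitochondrial mRNAs. The gene that rose was Uqcrc2, a core subunit of complex III, at 62.6 ± 18.8 FPKM over 7 to 21 d and 29.1 ± 12.1 FPKM over 6 to 24 h (SD, n = 6 each; log2 difference 1.13 ± 0.22 (SE), limma adjusted p = 0.00444). In Hep-Org against 7 to 21 d, 16 fell and 0 rose, of them 11 of 36 in complex I, 3 of 9 in complex III, 2 of 10 in complex IV and 0 of 14 in ATP synthase. The share of subunits called was close to the 24.9% of all genes called in this comparison. Ndufb5, an accessory subunit of complex I, averaged 3.99 ± 0.0542 FPKM in Hep-Org (SD, n = 2) and 17.3 ± 3.53 FPKM over 7 to 21 d (SD, n = 6; log2 difference -1.85 ± 0.26 (SE), adjusted p = 0.000171). Cox7a2 of complex IV and Cyc1 of complex III were lower by log2 differences of -1.54 and -1.30. These falls depended on the authors' scaling: with equal sums over all genes, 3 of the 69 subunits were called higher and 0 lower. Of all genes, 7169 were called under that setting, and 84.2% of these were higher in Hep-Org. Relative to the median of all genes the subunits lay at -0.90 as deposited, -0.64 with equal sums over all genes and -0.62 with equal sums over nuclear genes, beside -1.85, -1.57 and -1.55 for the mitochondrial mRNAs.

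Of 32 tested genes of mitochondrial transcription and RNA processing, 1 was called over 7 to 21 d against 6 to 24 h and 1 in Hep-Org against 7 to 21 d, where 7.13% and 24.9% of all genes were called. With 7 d left out, the count in Hep-Org was 7, and the share of all genes called under that setting was not taken. Fastk, of a family of mitochondrial RNA-binding proteins, fell to 6.15 ± 1.36 FPKM over 7 to 21 d, against 14.8 ± 5.43 FPKM over 6 to 24 h (SD, n = 6 each; log2 difference -1.07 ± 0.16 (SE), limma adjusted p = 0.00114). Hsd17b10, a subunit of mitochondrial RNase P, fell to 26.4 ± 0.654 FPKM in Hep-Org (n = 2), against 77.4 ± 36.0 FPKM over 7 to 21 d (SD, n = 6; log2 difference -1.40 ± 0.45 (SE), adjusted p = 0.0270). Polrmt, the mitochondrial RNA polymerase, and Tfam, its transcription factor, were in this list and were not called. Of 15 genes of mitochondrial DNA maintenance 0 were called between the later and earlier times, and 1 fell in Hep-Org against 7 to 21 d, Tymp, a thymidine phosphorylase. Of 7 regulators of mitochondrial biogenesis, Pprc1, a coactivator of the PGC-1 family, fell to 1.04 ± 0.37 FPKM over 7 to 21 d, against 3.65 ± 2.10 FPKM over 6 to 24 h (SD, n = 6 each; log2 difference -1.06 ± 0.16 (SE), adjusted p = 0.00138). That call was lost with 7 d left out, with equal sums over all genes, and without 6 h replicate 1, 12 h replicate 2, 24 h replicate 1 or 21 d replicate 2. Pprc1 and Esrra, a nuclear receptor of energy metabolism, rose in Hep-Org against 7 to 21 d, by log2 differences of 1.48 ± 0.24 and 1.18 ± 0.22 (SE, adjusted p = 0.000436 and 0.00109).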

How the data were processed

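The authors deposited FPKM values for 20 libraries. Reads were aligned with HISAT2 2.0.5 to mm10, per the submitters' processing notes; no source used here names the counting tool, annotation, strandedness or selection of poly(A) RNA. For undamaged replicate 1 the header and label differ by a letter, and the match was made by elimination. Members and gene lists were chosen with earlier results of these data known. Whole reads were recovered for 97.9% to 98.7% of low values (tolerance 0.05 reads), by gene lengths from GENCODE M21, which gave symbols for 54495 genes. Nuclear copies were found with BLAST+ 2.17.0 among annotated transcripts. limma 3.58.1 (R 4.3.3; trend and robust) was fitted to log2(FPKM + 1) of 13162 genes (FPKM of 1 or more in 2 libraries or more), fitting group means and a submission effect (9 residual and 3.29 prior degrees of freedom), Benjamini-Hochberg adjusted. In simulated FPKM with a log2 change of 1.5, calls found 86.3% of the changed genes for later against earlier times and 58.7% for Hep-Org against undamaged liver (13162 genes). The changed genes were drawn at random from all genes tested, with independent noise, so these rates are not those of the mitochondrial mRNAs. All 13 mRNAs and 2 rRNAs, the tested tRNAs and up to 3 called members of each list were named. Replicate numbers did not pair the samples: over 28 pairs of times the correlation of replicate differences had a median of -0.115.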

Additional observations from a re-analysis of the deposited data

How the results depend on the processing

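With no replicate block (no submission term), calls were 8, 4 and 12 of the 13 mRNAs for Hep-Org against undamaged liver, Hep-Org against 7 to 21 d, and 7 to 21 d against 6 to 24 h, in place of 7, 4 and 8. Without a submission term, without the filter or with libraries left out, the share of all genes called was not taken. Without the filter on low values 1 mRNA was called for Hep-Org against 7 to 21 d and 0 for the later against the earlier times. Equal sums over all genes gave 4 and 2 calls for Hep-Org against undamaged liver and against 7 to 21 d. Equal sums over nuclear genes gave 3 and 0, beside 7721 and 6623 of all genes. They also gave 1 call over the PHx times against undamaged liver, at 6 h, where 1502 of all genes were called. With 6 h and 12 h replicate 2 left out, chosen after seeing the data, 7 were called for Hep-Org against 7 to 21 d and 0 for the later against the earlier times. The 5-mRNA divisor, also chosen then, gave 1 call in the ratio test over the times, and the share of all genes called was not taken. Leaving out 1 replicate gave 1 to 8, 0 to 5 and 0 to 12 calls in the 3 comparisons, the lone library being assumed to vary like the other groups. In these 3 comparisons no mitochondrial gene called in level reversed in sign under any alternative. Nuclear genes were not checked for that. The cause of the changes in calls was not tested. Levels near 1 FPKM, mt-Atp8 in Hep-Org among them, rest on few reads.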
